A study of Homo sapiens with 4 samples.

Results

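The E2F and RB family regulators are 10 genes of the 58233 in the count table, taken by symbol. They are the activator E2F genes E2F1, E2F2 and E2F3, the repressor E2F genes E2F4, E2F7 and E2F8, the RB family genes RB1, RBL1 and RBL2, and TFDP1, which encodes the usual DP partner of E2F proteins. Their mRNA was measured in MIA PaCa-2 and PANC-1, established human pancreatic cancer cell lines recorded as WT, 24 h after cannabichromene (CBC) or control treatment. CBC was given at 35 μM to the first line and at 30 μM to the second, and the labels name the control PBS. CBC was dissolved in acetonitrile. The methods speak of a vehicle control and the labels of PBS, so whether the controls received acetonitrile is not settled, and a part of the solvent in the differences was not tested. There was 1 library per condition and 4 in all, so differences within a line were not checked by replicates. The dose differed between the lines and cannot be told apart from the line either. The paper set each dose from a viability assay of that line. With CBC it reports more Annexin V-positive cells, a sign of apoptosis, in both lines at the same time point. The share was larger in MIA PaCa-2 than in PANC-1. The share of dying cells in the sequenced cultures is not given. Its part in the changes below and in the differences between the lines was not tested.

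E2F proteins bind DNA near the start of genes needed for S phase. E2F1 to E2F3 mainly switch these genes on when free of RB, E2F4 mainly works with the RB relatives p107 (RBL1) and p130 (RBL2) to keep them off, and E2F7 and E2F8 repress without a DP partner or an RB protein. Cyclin-dependent kinases of G1 phosphorylate the RB proteins and release the E2F proteins, and several genes of the family are themselves E2F targets, so that the network feeds back on itself. In pancreatic cancer cells the brake is commonly lost upstream, through loss of the kinase inhibitor p16 (CDKN2A).

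The 150 bases before the transcription start are shown for members whose promoter holds an E2F motif. All 4 members with a promoter entry that were past 2-fold lower in both lines after CBC treatment hold one. E2F3, which was not past 2-fold lower, holds one too, and E2F8, which was, had no entry. This was seen with the changes known, and a link between motif and change was not tested. The sequences are from RefSeq on GRCh38.p14 and run 5′ to 3′ on the strand of the gene. Matches to TTTCCCGC, TTTGGCGC, TTTGCCGC or TTTCGCGC on either strand are in capitals, and a match on the other strand reads as its reverse complement. For TFDP1 the 118 bases before the start in the GENCODE 44 annotation are given, which lies 32 bases before the RefSeq start.
E2F1, chr20:33686386-33686535, minus strand: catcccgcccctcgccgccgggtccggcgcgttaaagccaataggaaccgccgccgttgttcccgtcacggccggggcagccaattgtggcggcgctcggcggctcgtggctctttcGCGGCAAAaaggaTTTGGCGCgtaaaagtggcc
E2F2, chr1:23531234-23531383, minus strand: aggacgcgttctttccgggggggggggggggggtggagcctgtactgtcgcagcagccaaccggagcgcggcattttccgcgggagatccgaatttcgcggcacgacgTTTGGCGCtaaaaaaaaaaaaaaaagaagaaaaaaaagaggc
RBL1, chr20:37095998-37096147, minus strand: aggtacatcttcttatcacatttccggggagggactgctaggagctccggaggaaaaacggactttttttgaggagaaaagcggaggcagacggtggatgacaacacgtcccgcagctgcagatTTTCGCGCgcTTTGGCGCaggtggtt
TFDP1, chr13:113584603-113584720, plus strand: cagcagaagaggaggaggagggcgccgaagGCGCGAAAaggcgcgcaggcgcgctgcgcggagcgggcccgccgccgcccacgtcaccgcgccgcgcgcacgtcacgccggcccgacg
E2F3, chr6:20401729-20401878, plus strand: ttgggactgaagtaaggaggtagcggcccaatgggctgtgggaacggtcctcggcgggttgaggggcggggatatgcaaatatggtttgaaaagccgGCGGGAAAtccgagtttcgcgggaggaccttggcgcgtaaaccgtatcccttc

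In windows of 300 bases, 250 before and 50 after the start, 9 of the 10 members had an entry. Of these 9, 5 held an E2F motif in at least 1 entry, against 3.31% of 35116 promoter entries of the same length. Members were counted by gene and the background by entry, and E2F3 and RBL2 had 2 entries each. Of the 5 members with an entry that were not past 2-fold lower in both lines, E2F3 alone held one. RB1 and RBL2 are among these 5 but had no entry at the annotated gene start, so their lack of a match is no contrast. E2F1 had matches that begin 33 and 20 bases before the start, RBL1 had matches that begin 26 and 16 bases before it, and the pair did not overlap in either gene. The single matches of E2F2, E2F3 and TFDP1 began 42, 53 and 120 bases before the RefSeq start. Another cell cycle motif, the CHR (TTTGAA, either strand), was found in E2F3, 65 bases before the start, and in RBL2, 25 bases after it, against 15.2% of all promoters, and it overlapped no E2F match. A match is a description of letters and says nothing of binding. The E2F8 promoter is not analysed here. The RB1 entry starts 172706 bases inside the annotated gene and does not represent its first promoter. The 2 entries of RBL2 start 494 and 1642 bases inside the annotated gene. The promoters of E2F4, the major repressor E2F, and of E2F7, the member whose values differed most between the lines, are shown for contrast and hold neither motif.
E2F4, chr16:67192005-67192154, plus strand: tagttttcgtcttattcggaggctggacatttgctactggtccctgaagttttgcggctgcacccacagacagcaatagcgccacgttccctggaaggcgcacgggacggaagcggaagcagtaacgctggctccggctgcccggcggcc
E2F7, chr12:77065570-77065719, minus strand: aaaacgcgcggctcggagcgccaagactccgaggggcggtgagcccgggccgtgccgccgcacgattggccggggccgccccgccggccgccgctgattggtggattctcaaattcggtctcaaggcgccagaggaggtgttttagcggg

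Libraries held 21742775 to 27903667 counts on genes, and 3 counts, the limit that a count of 0 allows, corresponded to 0.110 to 0.135 CPM. CPM here means counts divided by the library size in units of 1e+06 counts, scaled by the trimmed mean of M-values (TMM). All 10 members passed 1 CPM in at least 1 library of each line and were tested. The epithelial keratins KRT8, KRT18 and KRT19 were read at 3976 to 40044 counts in every library, with lower CPM in the CBC library of each line (KRT8 log2 fold changes -0.53 and -1.13, adjusted p = 0.0623). KRT7, another epithelial keratin, had 2 counts with PBS and 52 with CBC in MIA PaCa-2, and 49 and 58 in PANC-1 (adjusted p = 0.400), and it was the 1 gene of the 5 epithelial markers past 2-fold higher in a line. EPCAM had 0 and 1 counts in MIA PaCa-2 cells and 264 and 250 in PANC-1. None of the 5 passed the test across lines. Of 9 markers of immune, endothelial, stromal, islet and acinar cells, PTPRC, CD3E, PECAM1 and INS had no count in any library. The summed level of the 9 was 368 CPM with PBS and 95.9 CPM with CBC in the first line, and 134 and 47.3 CPM in the second, nearly all of it COL1A2 in MIA PaCa-2 and COL1A1 in PANC-1. Mitochondrial transcripts went from 5.81% to 3.86% of the counts and from 4.63% to 2.42%. The part of these shifts in the results below was not tested.

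After CBC treatment, E2F1, E2F2, E2F8, RBL1 and TFDP1 fell in both lines, while E2F3, E2F4, E2F7, RB1 and RBL2 did not pass the test. A change past 2-fold (a log2 fold change below -1) was found for 5 of 10 members in MIA PaCa-2 cells, against 8.97% of all tested genes, and for 5 of 10 in PANC-1 cells, against 7.03%. They were the same 5 genes, and 2.98% of the 12502 genes tested in both lines were past 2-fold lower in both. No member was past 2-fold higher, as 11.5% (MIA PaCa-2) and 7.71% (PANC-1) of tested genes were. The members were chosen with earlier results of these data known, so these counts are a description. In edgeR's quasi-likelihood test of CBC against PBS over both lines, with the cell line as a block and 1 residual degree of freedom, these 5 members had a Benjamini-Hochberg adjusted p under 0.05. The replicates of this test are the lines, so its p-values do not measure the spread between cultures. The spread of each gene is moderated across genes, so a low p-value does not show that the lines responded alike. The test called 2.45% of 16381 genes lower and 2.26% higher. Without the block for cell line it called 0 members and 0 genes, with 4 of the members at an unadjusted p under 0.05. The median log2 fold change of the 10 members was -1.06 (MIA PaCa-2) and -0.82 (PANC-1), beside -0.01 and 0.02 over all tested genes. In cells measured in bulk, fewer cycling cells, more dying cells and less RNA per cell cannot be told apart. MKI67, a marker of cycling cells, was at 999 (MIA PaCa-2) and 1243 CPM (PANC-1) with PBS and at 407 and 368 CPM with CBC (adjusted p = 0.0116), and its part in the members' changes was not tested.

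**Figure D1:**
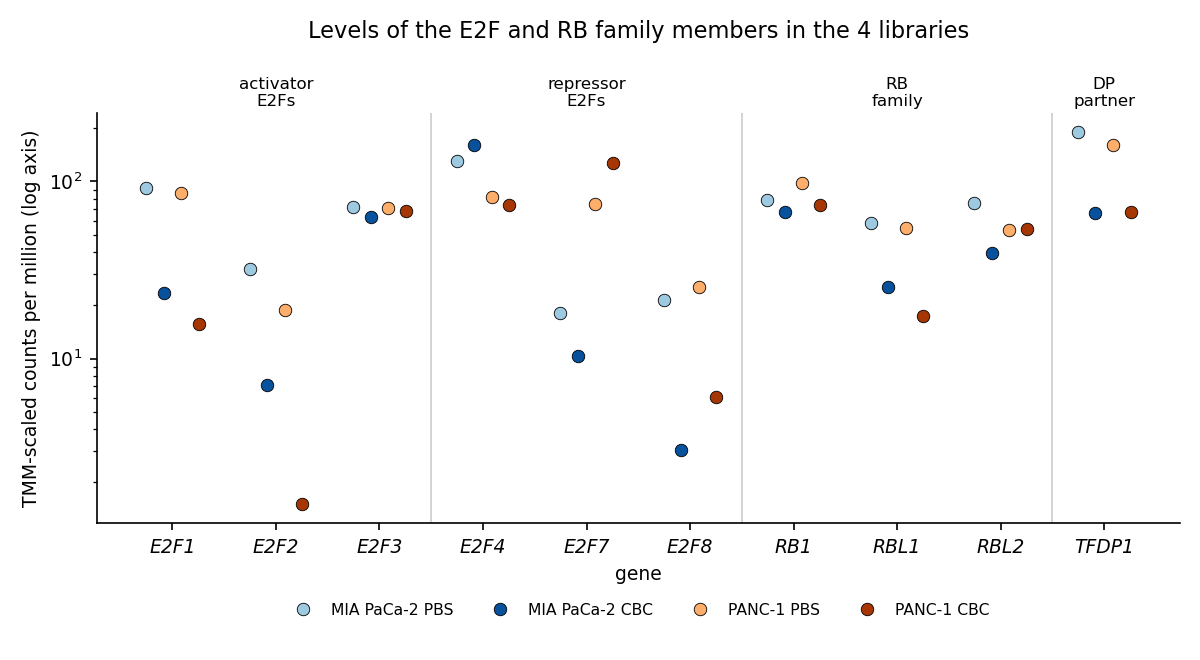
Level of each member (TMM-scaled CPM, log axis) in the 4 libraries, 1 point per library, grouped by role. E2F1, E2F2, E2F8, RBL1 and TFDP1 were lower in the CBC library of each line, from 32.1 to 7.07 and from 18.7 to 1.50 CPM for E2F2, whereas E2F3 stayed between 62.9 and 72.2 CPM.

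E2F1 (ENSG00000101412, chromosome 20 of GRCh38, 33675477 to 33686385), the founding activator of the family, was at 91.5 CPM with PBS and 23.4 CPM with CBC in MIA PaCa-2 cells. As for PANC-1 cells, it was at 85.9 CPM without and 15.8 CPM with CBC. Both CBC libraries lay below both controls, and the controls of the lines were close to each other. The level was 3.92-fold lower in the first line and 5.45-fold lower in the second. On the log2 scale the fold changes were -1.97 (95% counting interval -2.11 to -1.84) and -2.44 (-2.60 to -2.29), where the interval is the exact binomial one of the counts and covers counting error only. Across both lines the log2 fold change was -2.20 (SE 0.25, adjusted p = 0.00841), the smallest adjusted p among the members.

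E2F2 (ENSG00000007968, chromosome 1, 23506438 to 23531233), a second activator and the member with the lowest E2F level per length in control PANC-1 cells, had 714 and 175 counts in control and CBC-treated MIA PaCa-2 cells. It had 426 and 41 counts in PANC-1 cells. These counts correspond to 32.1 and 7.07 CPM in the first line and 18.7 and 1.50 CPM in the second. Its log2 fold change of -3.57 in PANC-1 cells (-4.14 to -3.18) was the largest decrease of any member in either line, a 12.5-fold lower level. In MIA PaCa-2 cells the value was -2.17 (-2.43 to -1.94), and across both lines it was -2.85 (SE 0.43, adjusted p = 0.0171). The log2 fold change in PANC-1 cells minus that in MIA PaCa-2 cells was -1.46 (counting interval -1.98 to -0.94), a difference that was not tested across cultures.

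E2F3 (ENSG00000112242, chromosome 6, 20401879 to 20493714), the third activator, was read at 72.2 (MIA PaCa-2) and 71.1 CPM (PANC-1) with PBS and at 62.9 and 68.5 CPM with CBC. All 4 libraries lay close together. Its log2 fold changes were -0.20 (-0.30 to -0.10) and -0.05 (-0.15 to 0.04), and the test across lines gave -0.12 (SE 0.21, adjusted p = 0.796). The sign in PANC-1 cells turned under another scaling, to 0.02 at most. The counts are per gene, so the E2F3a and E2F3b transcripts were not separated. The activator genes therefore split into E2F1 and E2F2, which fell, and E2F3, which did not pass the test.

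E2F4 (ENSG00000205250, chromosome 16, 67192155 to 67198918), the main repressor partner of the RB relatives, had 131 CPM with PBS and 160 CPM with CBC in MIA PaCa-2 cells. Its levels in PANC-1 cells were 81.8 and 73.2 CPM. The CBC library was the higher of the pair in MIA PaCa-2 cells and the lower one in PANC-1 cells. These were log2 fold changes of 0.29 (0.23 to 0.36) and -0.16 (-0.25 to -0.07), with 0.07 across lines (SE 0.22, adjusted p = 0.887).

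E2F7 (ENSG00000165891, chromosome 12, 77021248 to 77065569), an atypical repressor, had 402 counts with PBS and 255 with CBC in MIA PaCa-2. In PANC-1 it had 1702 and 3468 counts. On the CPM scale these were 18.1 and 10.3 against 74.9 and 127. The control of PANC-1 cells was 4.14-fold above that of MIA PaCa-2 cells, the largest difference between the controls of any member. The log2 fold changes had opposite signs, -0.81 (-1.04 to -0.58) in MIA PaCa-2 and 0.76 (0.68 to 0.85) in PANC-1, and neither was past 2-fold. The difference between the lines was 1.57 (counting interval 1.33 to 1.81), and the test across lines gave 0.01 (SE 0.37, adjusted p = 0.993).

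E2F8 (ENSG00000129173, chromosome 11, 19224063 to 19241620), the closest relative of E2F7 and also an atypical repressor, was lower with CBC in both lines. MIA PaCa-2 cells had 474 counts of it with PBS and 75 with CBC (21.3 and 3.03 CPM). PANC-1 cells had 580 and 165 counts (25.5 and 6.04 CPM). The controls were close to each other and both CBC libraries lay below them. A log2 fold change of -2.78 (-3.18 to -2.46) in the first line was the largest decrease of a member there, and the value in PANC-1 was -2.06 (-2.34 to -1.83). Across both lines E2F8 fell by 2.43 on the log2 scale (SE 0.34, adjusted p = 0.0147).

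**Figure D2:**
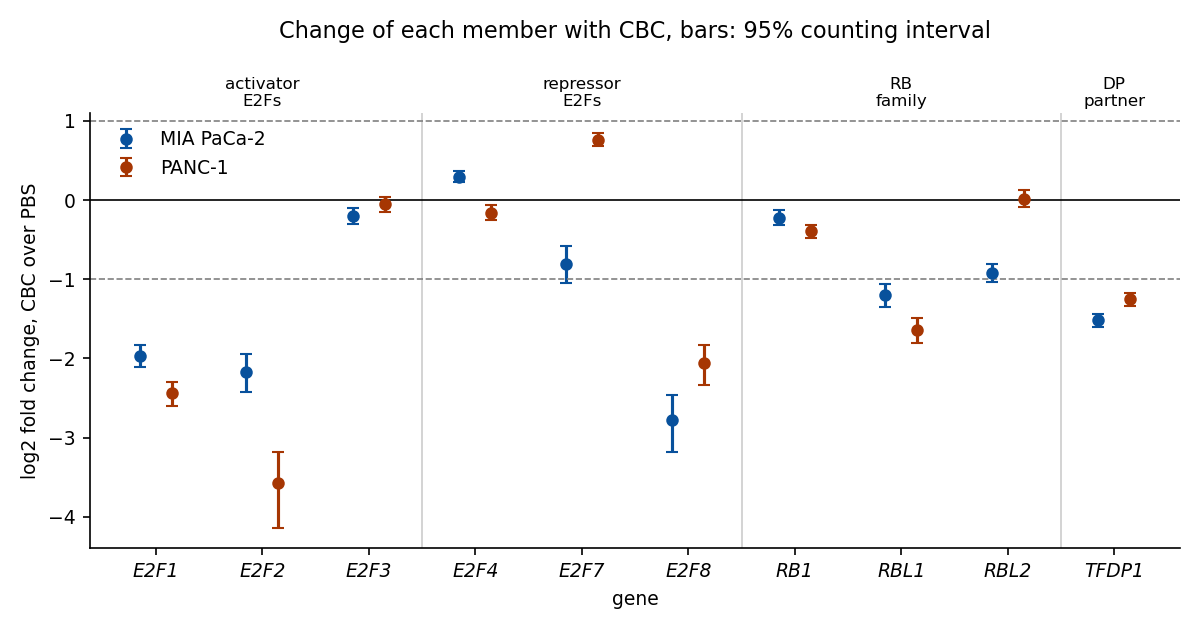
Log2 fold change of CBC over PBS for each member in MIA PaCa-2 (blue) and PANC-1 (brown) cells, with 95% counting intervals as bars and dashed lines at 2-fold. E2F1, E2F2, E2F8, RBL1 and TFDP1 lie below -1 in both lines, and E2F7 lies at -0.81 in one line and 0.76 in the other.

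RB1 (ENSG00000139687, chromosome 13, 48303744 to 48599436) encodes the retinoblastoma protein, which binds the activator E2F proteins. Its control levels were 78.8 (MIA PaCa-2) and 97.5 CPM (PANC-1), and its levels with CBC 67.6 and 74.0 CPM. In each line the CBC library was the lower of the pair, by less than the 2-fold threshold. The log2 fold changes were -0.22 (-0.32 to -0.13) and -0.40 (-0.48 to -0.31), and across lines -0.30 (SE 0.21, adjusted p = 0.456). LPAR6 lies within RB1 on the other strand and had 0 counts with PBS and 103 with CBC in MIA PaCa-2 and 27 and 15 in PANC-1, and whether the counting used strand is not given in the sources used here.

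RBL1 (ENSG00000080839, chromosome 20, 36996349 to 37095997), which encodes p107 and is expressed mainly in cycling cells, stood at 58.1 CPM in the control of MIA PaCa-2 and at 25.2 CPM with CBC. In PANC-1 it stood at 54.5 and 17.5 CPM. Both CBC libraries lay below both controls. Its log2 fold changes were -1.20 (-1.34 to -1.07) and -1.64 (-1.80 to -1.49), and RBL1 was the RB family member that fell across lines (-1.42, SE 0.25, adjusted p = 0.0255).

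RBL2 (ENSG00000103479, chromosome 16, 53433977 to 53491648) encodes p130, the family member of resting cells. With PBS it was at 75.1 (MIA PaCa-2) and 53.1 CPM (PANC-1), and with CBC at 39.7 and 53.8 CPM, so that the CBC library was the lower one only in MIA PaCa-2 cells. The log2 fold changes were -0.92 (-1.04 to -0.81) and 0.02 (-0.09 to 0.13), and the second turned to -0.01 under another scaling. The difference between the lines was 0.94 (counting interval 0.78 to 1.10) and the value across lines was -0.44 (SE 0.27, adjusted p = 0.396). AKTIP, which overlaps RBL2 on the other strand, had 542 and 537 counts in the controls and 771 and 949 with CBC. LPAR6 and AKTIP were named after their values were seen, and their part in the RB1 and RBL2 values was not tested.

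TFDP1 (ENSG00000198176, chromosome 13, 113584721 to 113641473) encodes DP1, with which E2F1 to E2F4 bind DNA as a dimer. The controls held 190 (MIA PaCa-2) and 160 CPM (PANC-1) of it, and the CBC libraries 66.5 and 67.0 CPM. The CBC libraries of the lines were nearly equal and both lay below the controls. The log2 fold changes were -1.52 (-1.60 to -1.43) and -1.25 (-1.34 to -1.17), and across lines TFDP1 fell by 1.38 on the log2 scale (SE 0.21, adjusted p = 0.0169). Its 3 annotated processed pseudogenes held at most 2 counts in any library.

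The order of the members by level was compared per length, as CPM per kb of exon, with all annotated exons of a gene joined. Which transcripts the cells expressed was not measured, so the order, and the shares and ratios below, also depend on these lengths. In control MIA PaCa-2 cells TFDP1 was highest at 50.9 CPM per kb, followed by E2F4 at 36.3 and E2F1 close behind it, whose counting intervals overlapped. E2F3 (13.9), RB1 (12.3), RBL1 (9.76), RBL2 (9.27), E2F2 (5.88), E2F8 (5.16) and E2F7 (2.87) followed in units of CPM per kb, and RBL1 with RBL2 and E2F2 with E2F8 were not told apart by counting error. In control PANC-1 cells TFDP1 (42.7), E2F1 (31.9) and E2F4 (22.7 CPM per kb) led, E2F7 stood at 11.9 and E2F2 was lowest at 3.43. With CBC, E2F4 became the highest member in both lines, at 44.5 (MIA PaCa-2) and 20.4 CPM per kb (PANC-1). In CBC-treated PANC-1 cells E2F7 stood beside it at 20.2 CPM per kb with overlapping counting intervals. E2F1 came to 8.69 and 5.86 CPM per kb in the same libraries. The lowest members were then E2F8 in MIA PaCa-2 cells, at 0.73 CPM per kb, and E2F2 in PANC-1 cells, at 0.27 CPM per kb.

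The balance between activators and repressors was described within each library, where it does not depend on the scaling between libraries. E2F1, E2F2 and E2F3 together held 54.8% of the counts per kb of the 6 E2F members in control MIA PaCa-2 cells and 32.0% with CBC. In PANC-1 cells the activators held 54.6% and 31.5%. The share of E2F3 among all 6 genes did not shrink, going from 14.2% to 17.6% and from 15.2% to 21.5%. In MIA PaCa-2 cells the repressor side among the 6 members was almost all E2F4 in the CBC library, with 64.5% against 37.0% in the control. In PANC-1 cells it was divided between E2F4, with 33.2% against 25.3%, and E2F7, with 32.9% against 13.2%. The 6 genes summed to 98.1 CPM per kb with PBS and 69.0 with CBC in the first line, and to 89.9 and 61.3 CPM per kb in the second.

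**Figure D3:**
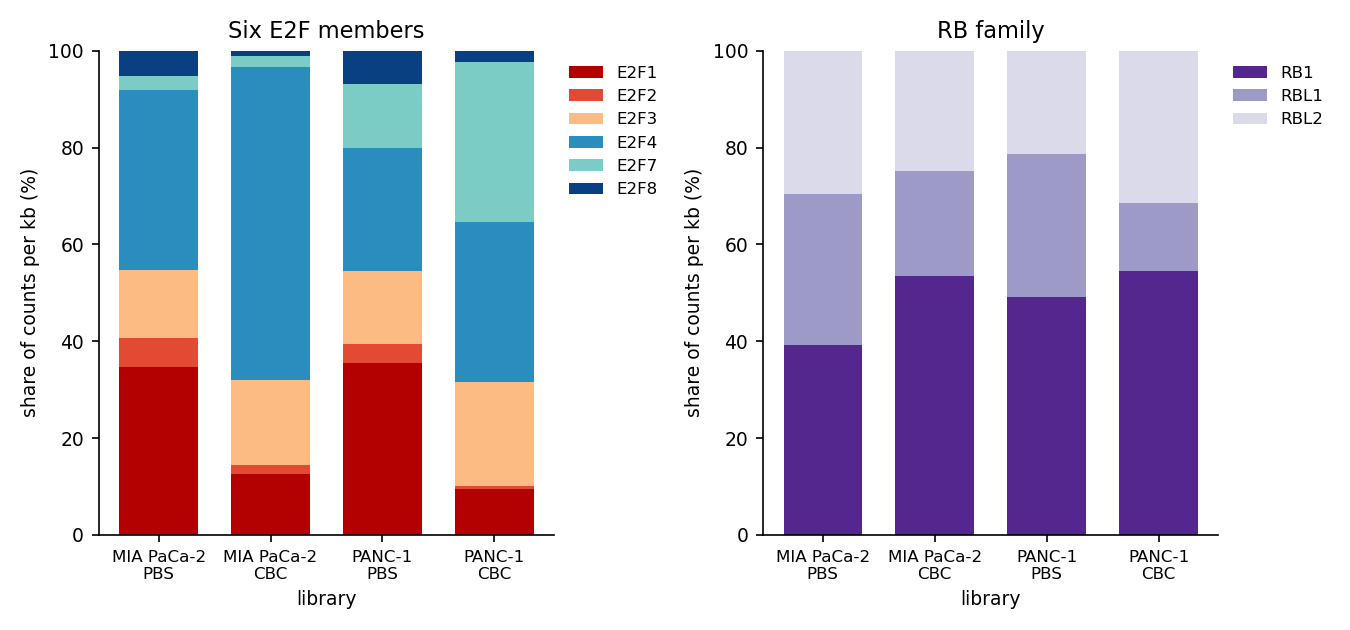
Share (%) of the counts per kb held by each of the 6 E2F members (left) and the 3 RB family members (right) in each library, as stacked bars. The activators (red and orange) hold 54.8% with PBS and 32.0% with CBC in MIA PaCa-2, and 54.6% and 31.5% in PANC-1, with E2F7 taking 32.9% in CBC-treated PANC-1 cells.

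The ratio of E2F4 to E2F1 counts per kb was 1.07 with PBS and 5.13 with CBC in MIA PaCa-2, and 0.712 and 3.47 in PANC-1. The change in this ratio was 4.80-fold (95% Poisson interval 4.33 to 5.33) in the first line and 4.88-fold (4.32 to 5.51) in the second, and these intervals overlapped. The ratio of E2F7 to E2F1 separated the lines, with a 2.23-fold change (1.86 to 2.68) in MIA PaCa-2 and a 9.23-fold change (8.19 to 10.4) in PANC-1 cells. For E2F4 to E2F2 the changes were 5.57-fold (4.69 to 6.61) and 11.2-fold (8.06 to 15.5). Within the RB family, RB1 to RBL1 changed 1.98-fold (1.76 to 2.22) in MIA PaCa-2 and 2.37-fold (2.10 to 2.68) in PANC-1 cells. RBL2 to RBL1 changed 1.22-fold (1.08 to 1.38) and 3.16-fold (2.78 to 3.60). RB1 held 39.2% and 53.5% of the RB family counts per kb in MIA PaCa-2 cells without and with CBC, and 49.1% and 54.6% in PANC-1 cells. RBL1 went from 31.2% to 21.6% and from 29.7% to 13.9%. All these intervals cover counting error only.

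The other E2F and DP genes did not pass the test, 0 of 3 tested, and their median log2 fold change was 0.11 (MIA PaCa-2) and 0.02 (PANC-1). E2F5, a repressor like E2F4, was at 6.39 CPM with PBS and 9.82 CPM with CBC in MIA PaCa-2, and at 18.8 and 21.4 CPM in PANC-1 (adjusted p = 0.509). E2F6, a repressor without an RB-binding part, was at 26.4 and 25.5 CPM and at 42.8 and 43.4 CPM in the same order (adjusted p = 0.986). TFDP2, which encodes the other DP partner, was at 113 and 122 CPM and at 57.9 and 52.2 CPM (adjusted p = 0.985), and TFDP3 had no count in any library. TFDP1 and TFDP2, both DP genes, thus stood on different sides of the threshold, and the difference between them was not tested.

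The repressor E2F4 and the RB relatives act in a complex with the MuvB core, which later in the cycle binds B-MYB and FOXM1 instead. Over all 16381 genes the test across lines called 2.45% lower and 2.26% higher, the shares to set beside this list and those below. These lists too were chosen with earlier results of these data known, so their counts are a description. Of the 8 genes for MuvB and its partners, 4 fell in the test across lines and none rose, with medians of -0.75 and -0.85. MYBL1 (-1.85 in MIA PaCa-2 and -2.19 in PANC-1 cells, log2 fold changes, adjusted p = 0.00778), MYBL2 (-0.87 and -1.99, adjusted p = 0.0364), FOXM1 (-0.87 and -1.21, adjusted p = 0.0330) and RBBP4 (-0.95 and -0.80, adjusted p = 0.0430) were the 4. MYBL2 encodes B-MYB, and RBBP4, a histone-binding subunit of MuvB, was named after its values were seen. RBBP4 was the 1 of the 5 MuvB core genes that was called, and LIN9, LIN37, LIN52 and LIN54 were not. Of the 8 genes, 6 were below 0 in MIA PaCa-2 and 7 in PANC-1 cells. LIN37, singled out after its values were seen, was above 0 in both lines (1.51 and 0.70, adjusted p = 0.169), past 2-fold in MIA PaCa-2.

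Of 8 genes for the kinases and cyclins that phosphorylate RB proteins, 3 fell, CDK2, CCND3 and CCNE2, and 1 rose, CCND2. Their median log2 fold changes were -0.70 and -1.27. CDK2, the partner of cyclin E, had 1634 counts with PBS against 535 with CBC in MIA PaCa-2 and 2366 against 763 in PANC-1 (adjusted p = 0.0112), and CCNE2 went from 21.0 to 6.35 CPM and from 25.2 to 4.17 CPM (adjusted p = 0.0213). CCNE1 was at 32.0 and 25.9 CPM and at 20.4 and 8.09 CPM (adjusted p = 0.217). CCND1, the main D-type cyclin, was at 169 and 79.0 CPM and at 451 and 323 CPM (adjusted p = 0.0859). The kinases that D-type cyclins bind did not pass the test. CDK4 was at 153 and 137 CPM and at 185 and 152 CPM (adjusted p = 0.592), and CDK6 at 90.3 and 74.0 CPM and at 225 and 96.6 CPM (adjusted p = 0.164). CCND2 had a single count (1) with PBS in MIA PaCa-2 and 2 in PANC-1, and 400 and 56 counts with CBC (adjusted p = 0.0122). CCND2, CCND3 and CDK2 were named after their values were seen.

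Among the CDK inhibitors, CDKN2A and CDKN2B had no count in any library, which allows up to 0.135 CPM. CDKN1A, which encodes p21, had 30 counts with PBS and 933 with CBC in MIA PaCa-2, and 1007 and 1955 in PANC-1. These are log2 fold changes of 4.72 and 0.69, which did not pass the test across lines (adjusted p = 0.154). CDKN2C, an inhibitor of CDK4 and CDK6 named after its values were seen, was the 1 of 5 tested genes that was called, beside list medians of 0.54 and 0.37. It fell from 27.3 to 5.38 CPM and from 92.2 to 22.0 CPM (adjusted p = 0.00865). Past 2-fold higher were 2 of the 5 in MIA PaCa-2 and 1 in PANC-1, and past 2-fold lower were 2 and 1. CDKN1C, also named after its values were seen, was past 2-fold higher in both lines (1.17 and 1.05, adjusted p = 0.180).

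Of 9 chromatin partners of RB and E2F proteins, 2 fell, DNMT1 (-1.06 and -1.40, adjusted p = 0.0194) and SUV39H1 (-0.96 and -1.45, adjusted p = 0.0381), the second named after its values were seen. The list medians were -0.53 and -0.36. DNMT1 is the maintenance DNA methyltransferase and SUV39H1 a histone methyltransferase. Of 5 genes for the turnover of E2F proteins, with medians of -0.38 and -1.34, 2 fell. They were SKP2, a ubiquitin ligase subunit (-2.01 and -1.58, adjusted p = 0.0144), and CCNF, which encodes cyclin F and was named after its values were seen (-1.53 and -1.34, adjusted p = 0.0172).

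Of 24 genes that E2F proteins act on at the G1/S boundary, 19 fell across lines and none rose, beside 2.45% of all genes called lower. The list was chosen with earlier results of these data known, so its counts are a description. All 24 had a log2 fold change below 0 in both lines. Past 2-fold lower were 15 of them in MIA PaCa-2 and 23 in PANC-1, beside 8.97% and 7.03% of all tested genes. The list had a median log2 fold change of -1.31 (MIA PaCa-2) and -2.05 (PANC-1), beside -0.01 and 0.02 over all tested genes. ORC1, a subunit of the origin recognition complex, changed most on average among those at a mean of 10 CPM or more, from 54.0 to 16.9 CPM and from 39.6 to 4.76 CPM (adjusted p = 0.0198).

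**Figure D4:**
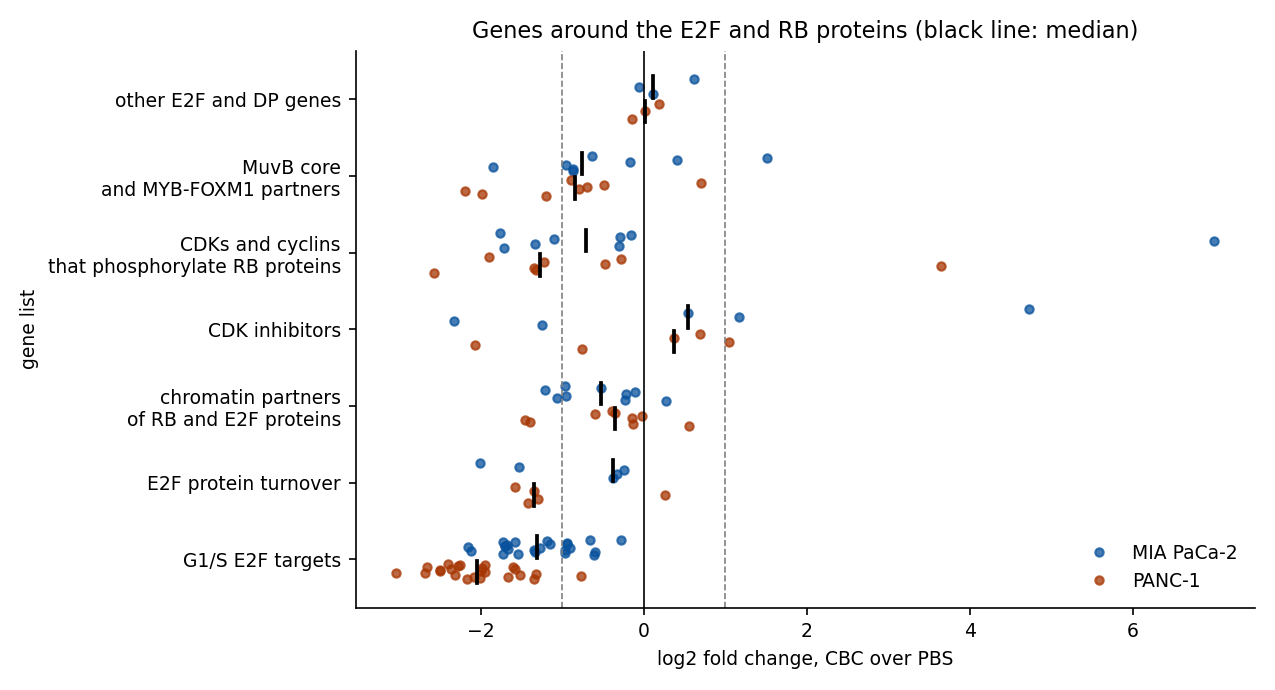
Log2 fold change of CBC over PBS for each tested gene of 7 lists around the E2F and RB proteins, in MIA PaCa-2 (blue) and PANC-1 (brown) cells, with the median of each list as a black line. The 24 G1/S targets all lie below 0, with medians of -1.31 and -2.05, and the point farthest to the right is CCND2 in MIA PaCa-2 cells.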

How the data were processed

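Messenger RNA from 4 libraries, 1 per condition and line, was sequenced by the authors, with reads trimmed in cutadapt 2.7, STAR alignment to GRCh38 and HTSeq counting by gene. The deposited table holds raw counts for 58233 Ensembl genes, of which 57392 matched a symbol. The deposited normalized signal per library, a CPM scaled by TMM in edgeR, was recomputed from the counts to within a relative difference of 6.84e-09. Positions and exon lengths came from GENCODE 44 on GRCh38, promoters from RefSeq. Log2 fold changes used edgeR 4.0.16 in R 4.3.3 (TMM, prior count 2) on genes of at least 1 CPM in 1 library of a line. The test across lines was edgeR's quasi-likelihood test on 16381 genes. It was also run on simulated data in which changed genes moved alike in both lines, which does not cover lines that respond differently. The cell line was the block, because libraries of 1 line pair (correlation of their deviations 0.923). The members and lists were chosen with earlier results of these data known. Members are all described. Of other lists, genes chosen by role and the 1 with the largest mean absolute log2 fold change (mean of 10 CPM or more) are named, and others are marked. Counting intervals are exact (Clopper-Pearson, scipy 1.17.1). Alternatives changed scaling, prior count, filter, values, block and tool.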

Additional observations from a re-analysis of the deposited data

Results flagged for a closer look

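E2F7 differed from its control in opposite directions in the lines, with a log2 fold change of -0.81 (MIA PaCa-2) against 0.76 (PANC-1). For E2F4 the values were 0.29 (MIA PaCa-2) and -0.16 (PANC-1). For each gene both counting intervals excluded 0, and the signs held under all 6 alternative scalings, prior counts and values. Each line had 1 library per condition, so neither difference between the lines was tested across cultures. Dose differed between the lines too, and so did the share of apoptotic cells that the paper reports after CBC treatment.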

How the results depend on the processing

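The number of members past 2-fold was 5 in each line with other scalings, prior counts, no filter, the deposited CPM, and when the counting interval had to lie wholly past 2-fold. It was 4 in each line when both libraries had to reach 5 CPM, which E2F8 (MIA PaCa-2) and E2F2 (PANC-1) did not. The test across lines called 5 members, the same genes each time (E2F1, E2F2, E2F8, RBL1 and TFDP1), with other scalings, without the filter, with DESeq2, and with 2 further edgeR settings chosen after the data were seen. Without the replicate block for cell line it called 0 members and 0 of 16381 genes in edgeR, with 4 members (E2F1, E2F8, RBL1 and TFDP1) and 354 genes at an unadjusted p under 0.05. Of 120 alternative log2 fold changes of the members, 119 lay within the counting interval of the reported value, and that of E2F2 in PANC-1 cells was -2.98 with the deposited CPM and a pseudocount of 1. The number of genes called was 771 by the reported test, 2063 of 28834 without the filter and 1371 with DESeq2. The sign turned for E2F3 and RBL2 in PANC-1 cells, both near 0. The variation between cultures of 1 line was not measured. No replicate could be left out, since each condition had 1 library.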
